A study of Homo sapiens with 12 samples.

Results

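The response of OGDH-depleted A375 cells to 5 h without glucose was measured by RNA sequencing. A375 is an established human melanoma line. The comparison set 3 libraries of starved OGDH-depleted cells (titled OGDH KO; -Glucose) against 3 libraries of OGDH-depleted cells that kept glucose (titled OGDH KO), which are 6 of the 12 libraries of the series. The other 6 libraries, 3 of control cells with glucose (Ctrl) and 3 of starved control cells (Ctrl;-Glucose), entered the same model and are cited where a response is set against that of control cells. The titles write KO and the series text writes knockdown, so the cells are called OGDH-depleted here; the labels give no guide, hairpin or clone, do not say how the control cells were treated, and leave unsaid if the libraries within a group are separate cultures. Of 61209 gene names in the count table, 18526 were expressed highly enough to be tested.

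OGDH is the first enzyme of the mitochondrial 2-oxoglutarate dehydrogenase complex, which carries carbon through the tricarboxylic acid cycle by turning 2-oxoglutarate into succinyl-CoA. Glucose feeds that cycle through pyruvate and also supplies glycolytic ATP, the pentose phosphate pathway and the sugars used for N-glycans in the endoplasmic reticulum (ER). Cells deprived of glucose are known to switch on immediate early transcription factors, chaperones, the unfolded protein response and amino acid genes, and to lose TXNIP, a gene that the glucose-sensing factor MondoA drives.

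OGDH itself, on chromosome 7 from 44606572 to 44709066 (hg38), was taken first because it checks the labels. It stood at 38.1, 45.1 and 36.3 CPM (counts scaled to library size and composition) in depleted cells with glucose, at 32.3, 33.9 and 32.3 CPM in starved depleted cells, and at 156, 142 and 166 CPM in control cells with glucose. All 6 depleted libraries lay below every control library, and the 3 starved depleted libraries lay below the 3 fed ones, without passing the test (log2 fold change -0.28, SE 0.10, adjusted p = 0.12). Markers of the melanocyte lineage summed to 703 to 831 CPM over the fed and 665 to 791 CPM over the starved libraries, and markers of dedifferentiated melanoma to 2894 to 3043 and 3249 to 3411 CPM. Of the keratinocyte, fibroblast, blood and endothelial markers, 3 of 8, 5 of 8, 2 of 10 and 3 of 6 were tested, and 0 passed the threshold. KRT1 and CD3E were at 0 in all 6 libraries. Other members were expressed: KRT10 stood at 30.6 to 37.6, DSP at 31.0 to 42.8 and PDGFRB at 5.06 to 8.35 CPM. The summed levels of these marker lists were 66.5 to 72.2 CPM with and 71.1 to 82.1 CPM without glucose for keratinocytes, 13.3 to 14.6 and 12.8 to 15.4 CPM for fibroblasts, 1.06 to 1.98 and 1.62 to 2.05 CPM for blood cells, and 3.67 to 4.2 and 4.85 to 5.20 CPM for endothelial cells.

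The starved depleted libraries were less alike than the fed ones. The root mean square difference between a library and the others of its group, in log2(CPM + 1) over well expressed genes, averaged 0.130 to 0.152 for the fed and 0.276 to 0.399 for the starved libraries, with starved replicate 3 farthest away. Starved replicate 1 was close behind at 0.369, with replicate 2 at 0.276, so replicate 3 was 1 end of a spread. Replicate 2 of the fed and replicate 3 of the starved control cells stood apart more clearly, at 0.522 and 0.499. The other control libraries lay at 0.315 to 0.365. Starved depleted replicate 3 and these control libraries are called the 3 outlying libraries, and leaving them out was an alternative chosen after seeing the data. Mitochondrially encoded transcripts took 6.25%, 6.98% and 5.16% of counts in the fed libraries and 3.06%, 5.12% and 9.71% in the starved ones. Across genes, the deviation of a library from the mean of all 12 correlated with transcript GC content at 0.549, 0.557 and 0.491 in the fed libraries and at 0.310, -0.165 and -0.650 in starved replicates 1, 2 and 3. These values move with the comparison, and their part in the results was not tested apart from the alternatives given beside them.

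Starvation changed 1330 genes in OGDH-depleted cells at an adjusted p under 0.05 (edgeR quasi-likelihood test), 448 higher and 882 lower. That is 7.18% of the tested genes, with 2.42% higher and 4.76% lower, and these shares are the background for every group below. At least 2-fold changes made up 176 of the increases and 419 of the decreases. The count was 633, 641 and 640 without fed depleted replicates 1, 2 and 3, 602 and 618 without starved replicates 2 and 3, and 1153 without starved replicate 1. With the GC slope of each library as a covariate, an alternative chosen after seeing the data, 2251 genes were higher and 2430 lower, so that 48.1% of calls were increases against 33.7% in the analysis as fixed. The median log2 fold change of all tested genes was 0.02.

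Immediate early transcription factors held both largest increases, FOS and EGR1, among genes with at least 5 CPM in the higher group. These factors are made within minutes of a stimulus, without new protein synthesis, and bind DNA as AP-1 dimers (FOS and JUN families), zinc finger proteins (EGR family) or orphan nuclear receptors (NR4A family). Of 24 tested members, 13 rose and 0 fell, with a median log2 fold change of 0.93. The count was 12 or 13 whichever library was left out.

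FOS stood at 10.8, 12.4 and 11.4 CPM with glucose and at 251, 254 and 229 CPM without (log2 fold change 4.41, SE 0.13, adjusted p = 2.2e-08). Its 3 starved libraries lay close together and far above the fed ones. EGR1 stood at 166, 192 and 131 CPM with glucose and at 1632, 2444 and 3743 CPM without (log2 fold change 4.0, SE 0.43, adjusted p = 0.00032). The groups of EGR1 did not overlap, as in 39.7% of all tested genes, but its starved libraries were spread more than 2-fold. Starved replicate 3 was at the top and replicate 1 at the bottom. FOSB, an AP-1 partner of JUN, went from 28.9, 30.2 and 28.6 to 202, 200 and 177 CPM (log2 fold change 2.72, SE 0.11, adjusted p = 3.8e-07). JUN went from 91.7, 97.8 and 91.6 to 362, 354 and 312 CPM (log2 fold change 1.87, SE 0.11, adjusted p = 9.5e-06). Both rose evenly across the starved libraries. EGR2 (log2 fold change 2.36), EGR3 (1.99), NR4A2 (2.16), NR4A3 (1.87), NR4A1 (1.72) and the stress-induced factor ATF3 (1.61) rose too, as did JUNB (0.91), KLF4 (0.59) and KLF10 (1.24). KLF10 lost its call without any 1 of 5 libraries, all but starved replicate 1 (adjusted p = 0.104 to 0.161). NR4A1, NR4A3 and JUNB were named after their values were seen.

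The EGR1 promoter is shown because the gene rose most after FOS and its upstream region holds the CArG boxes that serum response factor binds, the textbook route from kinase signalling to immediate early genes. A CArG box is a pair of C, a run of A or T and a pair of G, and reads the same way on both strands. The stretch is from RefSeq (GRCh38.p14), plus strand, chr5:138465344-138465445, 5′ to 3′, with both boxes in capitals; they begin 105 and 83 bases before the start site.
EGR1: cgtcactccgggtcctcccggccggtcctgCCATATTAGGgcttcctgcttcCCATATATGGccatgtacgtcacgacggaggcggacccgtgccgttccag
Windows from 250 bases before to 50 after the start site were used for 10 of the 13 factors that rose. EGR1 and EGR2 had a CArG box there, 2 of 10 genes, against 3.58% of the 307 risen genes with a window, 1.55% of 11816 tested genes with one and 1.29% of all 35116 windows. For EGR3, KLF10 and NR4A2 the window was not used here. The share among listed factors that did not rise was not computed.

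**Figure D1:**
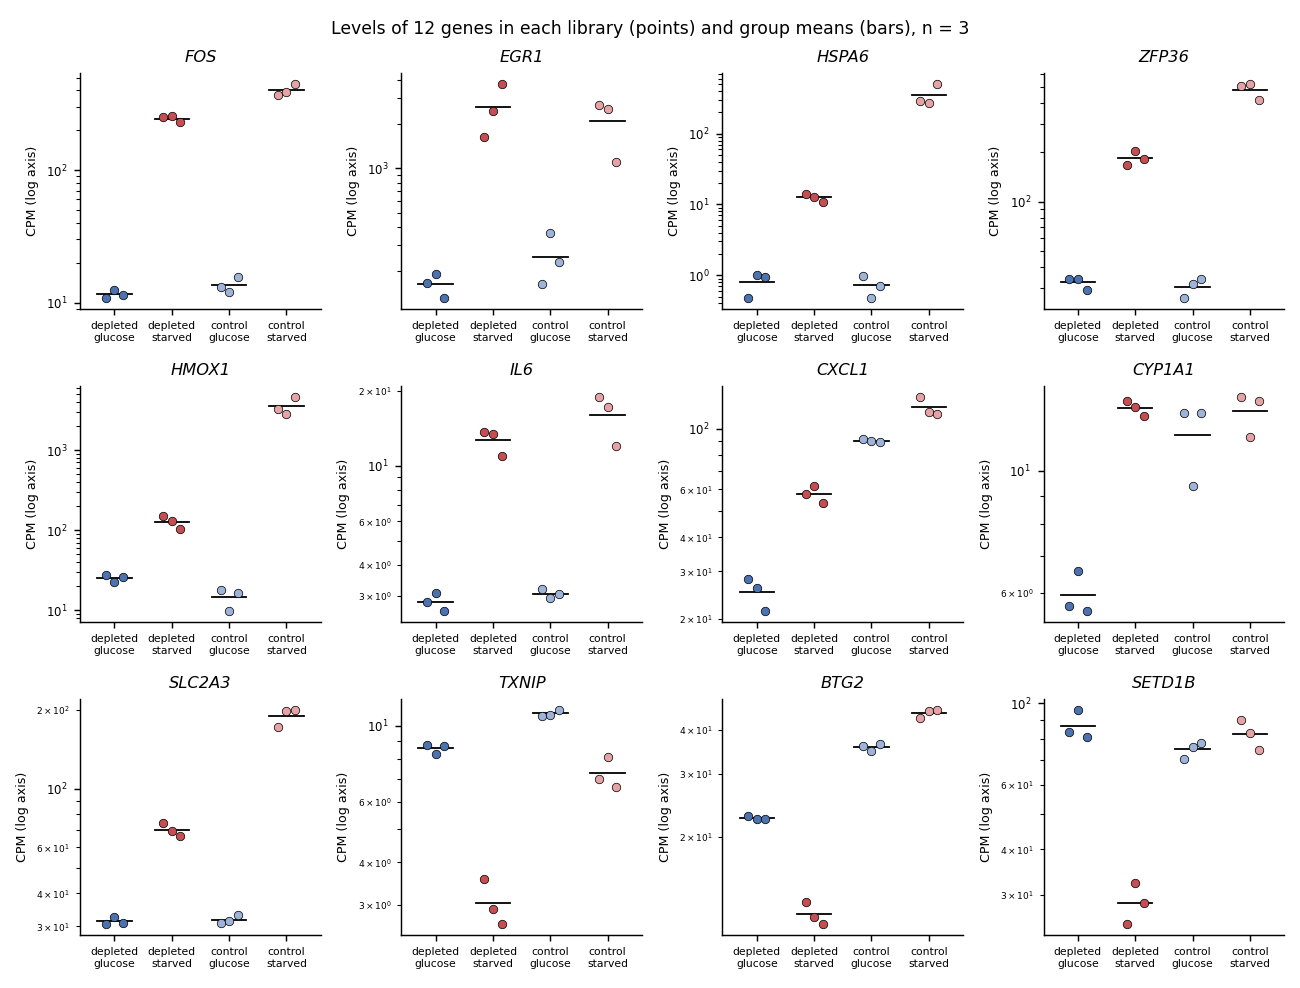
Levels of 12 genes in each of the 12 libraries as CPM on log axes, with points for libraries and bars for group means (n = 3). In OGDH-depleted cells FOS, EGR1, HSPA6, ZFP36, HMOX1, IL6, CXCL1, CYP1A1 and SLC2A3 stood higher in all 3 starved libraries than in any fed one, and TXNIP, BTG2 and SETD1B lower; the right side of each panel gives the control cells.

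Cytosolic heat shock genes, which encode chaperones that refold proteins in the cytosol and nucleus, rose in 8 of 21 cases and fell in 0 (median log2 fold change 0.41). HSPA6, a strictly inducible HSP70 on chromosome 1, stood at 0.48, 1.02 and 0.933 CPM with glucose and at 14, 12.7 and 10.9 CPM without (log2 fold change 3.95, SE 0.33, adjusted p = 6.3e-05). HSPA1A, another inducible HSP70, went from 0.841, 1.10 and 0.933 to 7.56, 7.71 and 7.93 CPM (log2 fold change 3.01, SE 0.19, adjusted p = 1.0e-05). Both were nearly silent with glucose and rose to low but even levels, and because HSPA1A and HSPA1B are near-identical copies whose shared fragments were not counted, the level of each is uncertain. DNAJB1, the HSP40 partner that hands clients to HSP70, was far more abundant and went from 216, 224 and 249 to 1127, 1055 and 965 CPM (log2 fold change 2.19, SE 0.15, adjusted p = 1.4e-05). The co-chaperone BAG3 (log2 fold change 0.84) and the HSP110 nucleotide exchange factor HSPH1 (0.71) rose as well. HSP90AA1 (0.58) and CHORDC1 (0.84), named after their values were seen, lost their calls without any 1 of 5 libraries, all but starved replicate 1 (adjusted p = 0.0659 to 0.0947 and 0.0692 to 0.13), which left 6 of 21.

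The HSPA6 promoter is shown because it holds the heat shock element, the site of heat shock factor HSF1. The motif searched on both strands was GAA, TTC and GAA with 2 free bases between neighbours. The stretch is from RefSeq (GRCh38.p14), plus strand, chr1:161524436-161524518, 5′ to 3′, with the match in capitals 74 bases before the start site.
HSPA6: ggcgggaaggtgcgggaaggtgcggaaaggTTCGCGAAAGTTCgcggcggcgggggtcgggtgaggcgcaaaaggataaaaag
Of the 8 heat shock genes that rose, HSPA6, HSP90AA1 and CHORDC1 held the motif in their windows, 3 of 8 genes, against 1.63% of all risen genes with a window, 0.482% of tested genes with one and 0.49% of all windows. The share among heat shock genes that did not rise was not computed, so these shares cannot separate the make-up of the list from the response.

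Cytokine and chemokine genes rose in 9 of 15 tested cases and fell in 0 (median log2 fold change 0.70). IL6, an inflammatory cytokine on chromosome 7, stood at 2.84, 3.09 and 2.61 CPM with glucose and at 13.7, 13.4 and 10.9 CPM without (log2 fold change 2.16, SE 0.18, adjusted p = 4.8e-05). CSF2, which encodes the growth factor GM-CSF, went from 33.1, 28.8 and 28.9 to 108, 82.6 and 71.1 CPM (log2 fold change 1.53, SE 0.19, adjusted p = 0.000998). CXCL1, a neutrophil chemokine, went from 28.1, 26.1 and 21.4 to 57.9, 61.8 and 53.6 CPM (log2 fold change 1.20, SE 0.11, adjusted p = 0.00013). In none of the 3 genes did the groups overlap, which held for 39.7% of all tested genes. IL6 was also 1 of the 15 largest increases, a choice that required no overlap. CXCL8 (log2 fold change 1.26), CXCL2 (1.16), IL1A (0.94), CCL2 (0.85), CXCL3 (0.70) and IL1B (0.60) made up the rest. IL1A, CXCL3 and IL1B were named after their values were seen; IL1A lost its call without fed replicate 2 or 3 (adjusted p = 0.0574 and 0.0537) and CXCL3 without fed replicate 3 (0.0576).

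Among NF-kB subunits and the inhibitors and targets that report on them, 4 of 19 rose and 0 fell (median log2 fold change 0.26). TNFAIP3, the ubiquitin-editing inhibitor A20, went from 18.7, 18.5 and 17 to 49.8, 54.7 and 48.3 CPM (log2 fold change 1.5, SE 0.10, adjusted p = 1.1e-05). NFKBIZ, an atypical inhibitor that acts in the nucleus (log2 fold change 1.43), BIRC3, an inhibitor of apoptosis (1.22), and ICAM1, an adhesion molecule (0.58), were the others. All 4 kept their calls whichever library was left out.

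The promoters of IL6 and of the CXCL1, CXCL2 and CXCL3 cluster are shown because these genes rose together and carry the same NF-kB box. The motif searched on both strands was GGGA, any 1 base and TTTCC. The stretches are from RefSeq (GRCh38.p14), 5′ to 3′ on the strand of the gene, with the box in capitals: IL6 plus strand chr7:22727097-22727176, CXCL1 plus strand chr4:73869284-73869363, CXCL2 minus strand chr4:74099224-74099303 and CXCL3 minus strand chr4:74038719-74038798.
IL6: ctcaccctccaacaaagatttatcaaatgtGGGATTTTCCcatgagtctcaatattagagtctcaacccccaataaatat
CXCL1: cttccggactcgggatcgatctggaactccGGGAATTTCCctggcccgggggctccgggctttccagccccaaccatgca
CXCL2: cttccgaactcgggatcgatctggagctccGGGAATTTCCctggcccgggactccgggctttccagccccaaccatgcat
CXCL3: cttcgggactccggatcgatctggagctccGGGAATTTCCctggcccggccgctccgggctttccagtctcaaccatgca
The box began 73 bases before the start site in IL6, 79 in CXCL1 and CXCL3 and 78 in CXCL2. The 3 CXCL promoters are copies of one ancestral region, so they are not separate instances. With TNFAIP3 and NFKBIZ, 6 of the 12 risen cytokine and NF-kB genes that had a window held the box (4 of 8 and 2 of 4), against 2.28% of all risen genes with a window, 0.736% of tested genes and 0.558% of all windows. Members of these lists that did not rise were not searched as a set, so the shares cannot separate the make-up of the lists from the response.

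Feedback on kinase signalling split by gene. Of 20 dual-specificity phosphatases, other brakes and outputs of the MAP kinase pathway, 4 rose and 3 fell (median log2 fold change 0.13). DUSP10, a phosphatase for JNK and p38, went from 17.8, 17.5 and 16.7 to 45.4, 50.3 and 48.3 CPM (log2 fold change 1.47, SE 0.09, adjusted p = 9.1e-06). DUSP1, a nuclear phosphatase for the same kinases and ERK, rose by 1.33, DUSP5, specific for ERK, by 1.05, and the EGF receptor inhibitor ERRFI1 by 0.87. CCND1, which encodes cyclin D1 and is an output of ERK signalling, fell from 824, 832 and 854 to 570, 533 and 550 CPM (log2 fold change -0.60, SE 0.08, adjusted p = 0.00145). The groups did not overlap, as in 39.7% of all tested genes. SPRY1, an inhibitor of receptor tyrosine kinase signalling, fell by 0.90 on the log2 scale. DUSP7, a cytoplasmic ERK phosphatase named after its value was seen, fell by 0.57, which did not hold when any 1 of 5 libraries, all but starved replicate 3, was left out (adjusted p = 0.0639 to 0.101), and with a GC offset (adjusted p = 0.50).

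Factors that shorten mRNA lifetimes also moved both ways: 4 of 12 rose and 2 fell (median log2 fold change 0.50). ZFP36, which binds AU-rich elements in cytokine and immediate early mRNAs and recruits deadenylases, went from 34.1, 34.1 and 29.2 to 169, 204 and 182 CPM (log2 fold change 2.51, SE 0.14, adjusted p = 4.6e-06). ZC3H12C, a relative of the RNase regnase-1, rose by 0.88. BTG2, an antiproliferative partner of the CCR4-NOT deadenylase, fell from 22.8, 22.5 and 22.4 to 13.1, 11.9 and 11.4 CPM (log2 fold change -0.90, SE 0.09, adjusted p = 0.00018). The groups did not overlap for ZFP36 or BTG2, as in 39.7% of all tested genes, and the 2 genes moved in opposite directions. The calls of ZC3H12A (0.60), which encodes regnase-1, and of TOB2 (-0.53) were lost without any 1 of 6 and of 5 libraries (adjusted p = 0.0572 to 0.131 and 0.065 to 0.122), and that of BTG1 (0.48) with a GC offset (adjusted p = 0.48).

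Few genes of carbon metabolism passed the threshold, and their count depended on how library GC differences were treated. Of 23 genes of glucose uptake and glycolysis, 1 rose and 0 fell (median log2 fold change -0.01): SLC2A3, the high-affinity glucose transporter GLUT3, went from 30.6, 32.5 and 30.9 to 74.2, 69.4 and 66.4 CPM (log2 fold change 1.16, SE 0.09, adjusted p = 3.6e-05). SLC2A1, the general glucose transporter, stood at 361, 337 and 376 CPM with glucose and at 447, 345 and 241 CPM without (log2 fold change -0.06, SE 0.32, adjusted p = 0.93). Its starved libraries lay on both sides of the fed ones. With the GC slope covariate 17 of the 23 genes were called higher and 0 lower (median log2 fold change 0.28); with the GC offset or without the 3 outlying libraries it was 1. Of 33 genes of the tricarboxylic acid cycle and pyruvate entry, 0 passed by edgeR; before adjustment 5 had p under 0.05, against 23.7% of all tested genes, and DESeq2 called 2, against 11% of all genes. Of 38 nuclear-encoded respiratory chain genes 0 passed by edgeR; 1 had p under 0.05 before adjustment and DESeq2 called 1. With the GC slope covariate 11 genes of the cycle were higher and 1 lower, and 18 respiratory chain genes were higher and 0 lower.

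TXNIP, an arrestin-domain protein that restrains glucose uptake, fell from 8.81, 8.26 and 8.74 to 3.57, 2.92 and 2.64 CPM (log2 fold change -1.49, SE 0.13, adjusted p = 9.1e-05). The groups did not overlap, as in 39.7% of all tested genes. The wider list of MondoA, its partners and targets and the arrestin-domain genes had 2 of 10 higher and 3 lower (median log2 fold change -0.29). Apart from TXNIP these calls were fragile: ARRDC4 (-0.57) lost its call without any 1 of the 6 libraries (adjusted p = 0.052 to 0.119), and MLXIP (-0.54), which encodes MondoA, and HBP1 (0.48) and KLF11 (0.50) each without any 1 of 4 (0.0541 to 0.0923 over the 3 genes).
The TXNIP promoter is shown for its carbohydrate response element, the paired E-box that MondoA binds. The motif searched on both strands was CACGNG and CNCGNG with 5 free bases between them. The stretch is from RefSeq (GRCh38.p14), minus strand, chr1:145996611-145996697, 5′ to 3′, with the match in capitals 88 bases before the start site of 1 of the 2 TXNIP windows.
TXNIP: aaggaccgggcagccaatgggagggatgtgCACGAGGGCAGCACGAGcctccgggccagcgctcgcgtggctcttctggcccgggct
The motif was in 0.501% of all windows, in 0.965% of tested genes with a window and in 0.84% of the 476 fallen genes with a window. It was thus not more frequent among fallen genes.

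Several other programmes had members that rose. Among genes induced by FOXO factors and fasting, 8 of 18 rose and 1 fell (median log2 fold change 0.47). They included CITED2, a CBP-binding regulator (1.70), GADD45B, a stress sensor of the JNK and p38 pathway (1.46), CCNG2, an atypical cyclin (1.14), BCL6, a transcriptional repressor (0.97), and FBXO32, the ubiquitin ligase atrogin-1 (0.91). CDKN1B, the CDK inhibitor p27, named after its value was seen, was the gene that fell (-0.49); its call was lost without any 1 of 4 libraries (adjusted p = 0.0634 to 0.0873). Of 14 YAP and TEAD targets 6 rose and 1 fell (median log2 fold change 0.30). CCN1, a secreted matrix protein, went from 410, 383 and 320 to 1418, 1585 and 1285 CPM (log2 fold change 1.95, SE 0.12, adjusted p = 9.7e-06), and NUAK2, an AMPK-related kinase (1.90), CCN2 (1.47), the ankyrin repeat protein ANKRD1 (0.82), tissue factor F3 (0.69) and the Hippo kinase LATS2 (0.64) rose with it. AJUBA, a LIM protein named after its value was seen, was the gene that fell (-0.57), a call lost without any 1 of 5 libraries (adjusted p = 0.124 to 0.216).

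Targets of hypoxia-inducible factors rose in 3 of 24 cases and fell in 0 (median log2 fold change 0.36). KDM3A, a 2-oxoglutarate-dependent histone H3K9 demethylase, went from 49.0, 46.4 and 44.3 to 78.1, 81.7 and 78.6 CPM (log2 fold change 0.77, SE 0.09, adjusted p = 0.0004). ANKRD37 (1.01) and the secreted hormone STC1 (0.79) were the others; ANKRD37 lost its call with a GC offset (adjusted p = 0.064) and STC1 without any 1 of 5 libraries (0.0634 to 0.0978). Of 11 TGF-beta and BMP targets 3 rose and 3 fell: ID2, a dominant-negative helix-loop-helix protein, went from 2.28, 2.65 and 2.09 to 12.5, 11.5 and 12.8 CPM (log2 fold change 2.39, SE 0.13, adjusted p = 4.6e-06), whereas the inhibitory SMAD6 (-0.90) and the repressor TGIF1 (-0.73) fell. BAMBI (0.64) and ID1 (-0.80) in this list each lost their call without any 1 of 5 libraries (adjusted p = 0.0537 to 0.0906 and 0.0647 to 0.142). Clock genes rose in 5 of 15 cases and fell in 0, led by the repressor BHLHE40 (1.03); only 1 was called without fed replicate 1, 2 or 3 or starved replicate 3, and 2 without starved replicate 2. Sterol genes rose in 4 of 23 cases, with INSIG1, which holds the sterol sensor in the ER, from 22.5, 23.1 and 22.3 to 50.9, 54.9 and 52.2 CPM (log2 fold change 1.22, SE 0.08, adjusted p = 1.1e-05); without fed replicate 1 or 2 it was 1 gene. HMOX1, which breaks down heme, went from 27.3, 22.6 and 25.8 to 150, 129 and 104 CPM (log2 fold change 2.34, SE 0.25, adjusted p = 0.000295) and was the only 1 of 18 NRF2 and oxidative stress genes called, with 4 at an unadjusted p under 0.05.

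The aryl hydrocarbon receptor system, put together after values were seen, had 3 of 7 members higher and 0 lower, whichever library was left out. The receptor is a ligand-activated transcription factor whose standard readouts are the cytochrome P450 genes CYP1A1 and CYP1B1 and the ADP-ribosyltransferase TIPARP, which feeds back on it. TIPARP went from 108, 105 and 104 to 325, 337 and 351 CPM (log2 fold change 1.68, SE 0.11, adjusted p = 1.1e-05). CYP1B1 went from 1.88, 1.72 and 1.12 to 6.13, 6.66 and 6.66 CPM (log2 fold change 2.04, SE 0.18, adjusted p = 8.0e-05). CYP1A1 went from 5.68, 6.58 and 5.56 to 13.4, 13.1 and 12.6 CPM (log2 fold change 1.13, SE 0.14, adjusted p = 0.00087). The groups did not overlap in any of the 3, as in 39.7% of all tested genes, and for CYP1B1 the rule that named it required this. The receptor gene AHR stood at 0.54 (SE 0.23, adjusted p = 0.18).

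**Figure D2:**
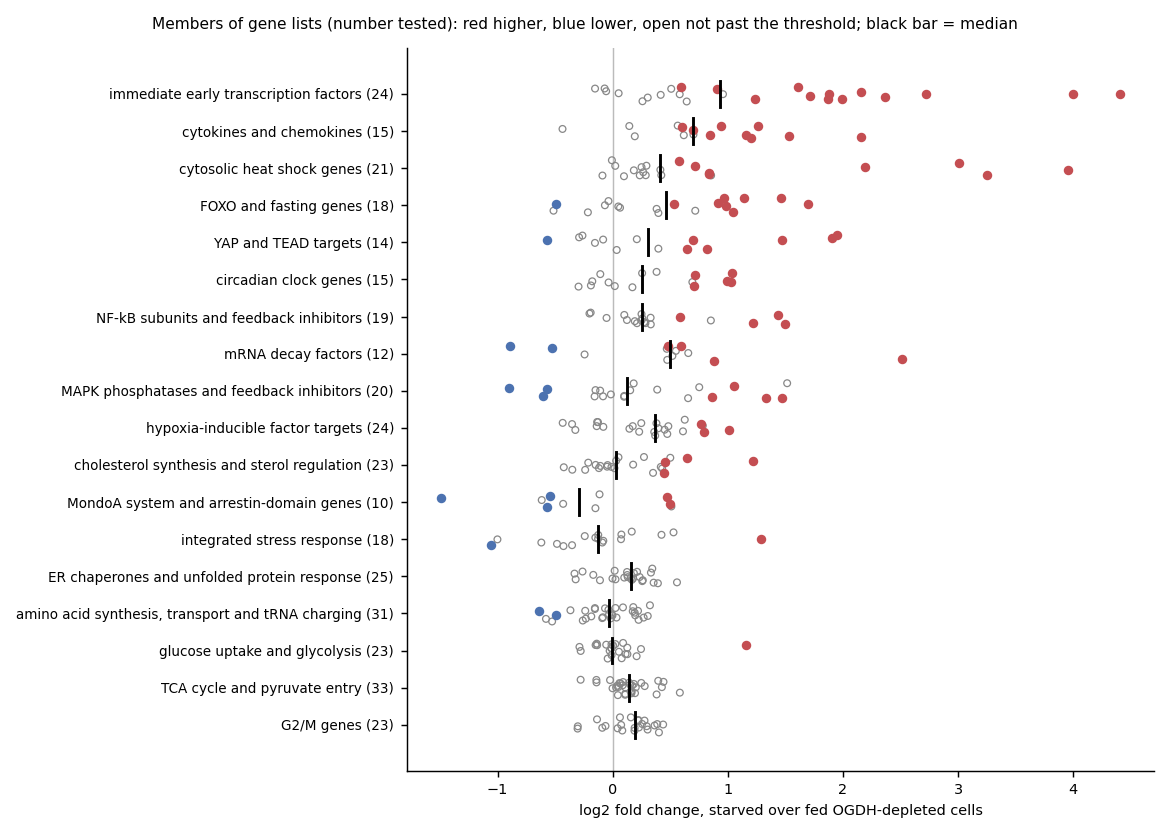
Log2 fold changes of starved over fed OGDH-depleted cells for the tested members of 18 gene lists, with red and blue points for members past the threshold, open points for the others and a black bar at the list's median. The 24 immediate early factors reach from -0.15 to 4.41 with a median of 0.93. All 25 ER chaperone and unfolded protein response genes (-0.33 to 0.56) and all 23 G2/M genes (-0.31 to 0.44) are open points.

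The unfolded protein response and the amino acid branch of the integrated stress response had few members past the threshold. Of 25 ER chaperone and unfolded protein response genes 0 passed by edgeR. Before adjustment 7 had p under 0.05, against 23.7% of all tested genes, and DESeq2 called 6, against 11%. The groups did not overlap for 18 of the 25, against 39.7% of all tested genes, and 19 of the 25 log2 fold changes were positive. The median log2 fold change was 0.16. HSPA5, the main ER chaperone BiP, stood at 693, 681 and 682 CPM with glucose and at 852, 826 and 787 CPM without, with no overlap (log2 fold change 0.26, SE 0.09, adjusted p = 0.12). DDIT3, the stress-induced factor CHOP, stood at 17.3, 14.1 and 13.7 and at 23.7, 23.2 and 18.3 CPM (0.53, SE 0.16, adjusted p = 0.068). These 2 genes passed in DESeq2, with the GC slope covariate and without the 3 outlying libraries, and DDIT3 also with a GC offset. With the GC slope covariate 6 of the 25 genes were higher and 2 lower. Of 18 integrated stress response genes 1 rose and 1 fell: PPP1R15A, the stress-induced subunit that directs PP1 to eIF2-alpha, went from 322, 316 and 315 to 858, 777 and 688 CPM (log2 fold change 1.28, SE 0.13, adjusted p = 0.00018), and the peptide hormone gene ADM2 fell by 1.06 on the log2 scale, a call lost without any 1 of 4 libraries (adjusted p = 0.0697 to 0.0947).

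ATF4, the transcription factor of this branch, stood at 566, 577 and 586 CPM with glucose and at 579, 545 and 461 CPM without (log2 fold change -0.13, SE 0.14, adjusted p = 0.60), and its target ASNS, asparagine synthetase, at 0.18 (SE 0.17, adjusted p = 0.53). Of 31 amino acid genes 0 rose and 2 fell, the arginine transporter SLC7A1 (-0.49) and the glycine transporter SLC6A9 (-0.64). SLC7A1 lost its call without starved replicate 3 (adjusted p = 0.0577) and SLC6A9 without any 1 of 5 libraries (0.0644 to 0.126). Of 23 G2/M genes 0 passed by edgeR; before adjustment 1 had p under 0.05, and DESeq2 called 0. Of 23 G1/S and replication genes 1 fell, the activator E2F2 (-0.72), a call lost without any 1 of 5 libraries (0.102 to 0.181).

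The 4 largest decreases among genes with at least 5 CPM in the higher group were in mitochondrial tRNA transcripts, of which the mitochondrial genome encodes 22 to translate its own mRNAs. They are cut out of long transcripts in which they punctuate the mRNAs and rRNAs. Of the 10 that were tested 8 fell and 0 rose (median log2 fold change -3.01), and 7 or 8 fell whichever library was left out. MT-TH, the histidine tRNA, stood at 16.6, 18 and 11 CPM with glucose and at 0.853, 0.958 and 0.365 CPM without (log2 fold change -4.36, SE 0.31, adjusted p = 1.4e-05). MT-TC, the cysteine tRNA, went from 50.2, 57.2 and 33.3 to 5.12, 6.75 and 5.79 CPM (log2 fold change -2.99, SE 0.28, adjusted p = 0.00013). MT-TN, the asparagine tRNA, went from 14.9, 16.3 and 13.6 to 2.33, 1.79 and 1.73 CPM (log2 fold change -2.92, SE 0.26, adjusted p = 9.0e-05). In these 3 genes the starved libraries all lay far below the fed ones. They were among the 15 largest decreases, a choice that required no overlap, which held for 39.7% of all tested genes. MT-TR (-3.28) and MT-TG (-2.73) fell likewise. MT-TS2 had 98, 97 and 81 counted fragments with glucose and 1, 4 and 0 without, and MT-TY 45, 30 and 24 against 2, 3 and 0, so their levels without glucose rest on a few fragments. MT-TL1 (-2.24) fell too, a call lost without fed replicate 1 or 2 or starved replicate 3 (adjusted p = 0.0508, 0.0574 and 0.0547).

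MT-TI stood at -3.03 (SE 0.86, adjusted p = 0.058) and passed in 7 of 16 alternatives, among them DESeq2 (adjusted p = 0.0067), the GC offset (0.00633) and the fit without the 3 outlying libraries (0.000853). MT-TP, the proline tRNA, stood apart: 52.8, 68.6 and 46.1 CPM with glucose and 28.6, 55.6 and 90.0 CPM without (log2 fold change 0.06, SE 0.63, adjusted p = 0.96). Its starved libraries spanned the fed ones and followed the share of mitochondrial counts in each library. The 12 tRNAs too sparse to test held 69, 41 and 57 fragments in all with glucose and 4, 3 and 10 without. The 8 that fell lay on both strands, MT-TN, MT-TC and MT-TY side by side on the minus strand and MT-TL1, MT-TG, MT-TR, MT-TH and MT-TS2 on the plus strand.

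The tRNA genes that carried these decreases are shown with MT-TP, which did not pass, from the GENCODE 29 transcripts (hg38), 5′ to 3′ on their own strand. Capitals mark the anticodon, found as the middle of a loop of 7 bases closed by a stem of 5 pairs. The positions are chrM:12138-12206 plus strand for MT-TH, chrM:10405-10469 plus strand for MT-TR, chrM:5761-5826 minus strand for MT-TC, chrM:5657-5729 minus strand for MT-TN and chrM:15956-16023 minus strand for MT-TP.
MT-TH: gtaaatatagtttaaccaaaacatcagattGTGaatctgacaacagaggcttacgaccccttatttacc
MT-TR: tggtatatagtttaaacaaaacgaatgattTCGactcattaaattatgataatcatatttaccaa
MT-TC: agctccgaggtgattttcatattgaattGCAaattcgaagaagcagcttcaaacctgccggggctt
MT-TN: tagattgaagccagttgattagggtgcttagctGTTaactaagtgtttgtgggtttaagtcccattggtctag
MT-TP: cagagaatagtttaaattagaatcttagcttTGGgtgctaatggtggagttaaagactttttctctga
The printed genes are 65 to 73 bases long, and a fragment that also overlapped a neighbouring gene was not counted. Which RNA species the counted fragments came from was not tested.

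The longer mitochondrial transcripts did not move as the tRNAs did. Of the 13 mitochondrial mRNAs 0 passed by edgeR; before adjustment 0 had p under 0.05, DESeq2 called 0, and the median was -0.23 on the log2 scale. With the GC slope covariate, however, all 13 were called lower (median -1.43), and without the 3 outlying libraries 9 of 13 were (median -0.82), so their call depended on the library differences given above. MT-RNR1, the small ribosomal RNA, stood at 697, 753 and 617 CPM with glucose and at 278, 386 and 368 CPM without, with no overlap (log2 fold change -1.0, SE 0.19, adjusted p = 0.0094). MT-RNR2, the large one, stood at -0.07 (SE 0.50, adjusted p = 0.94).

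**Figure D3:**
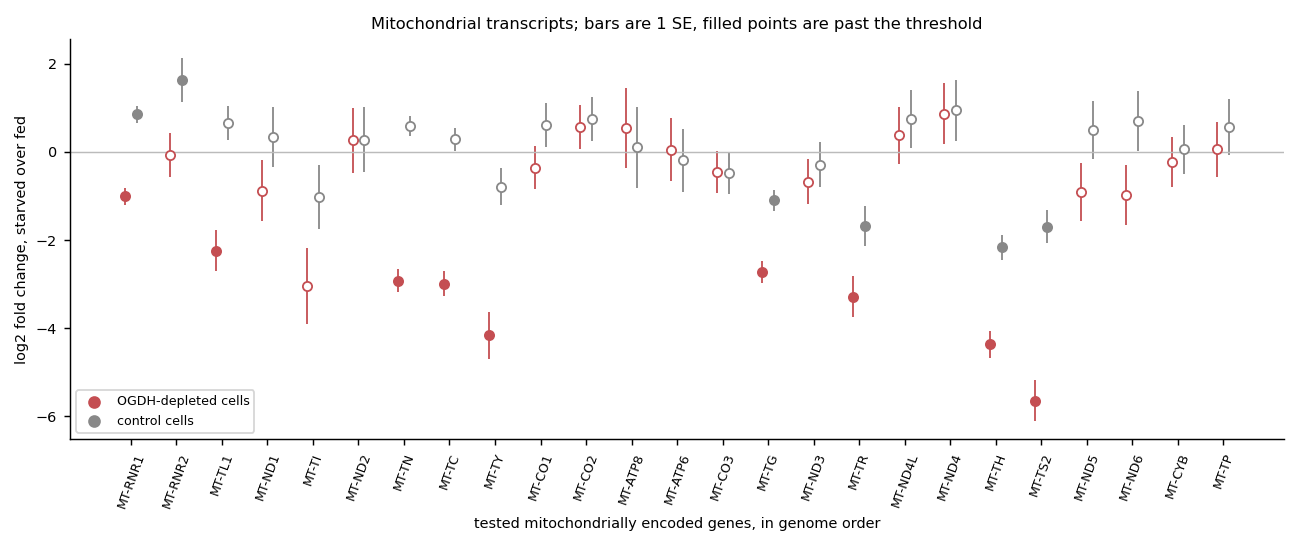
Log2 fold change of starved over fed cells for the 25 tested mitochondrially encoded genes in genome order, for OGDH-depleted (red) and control (grey) cells, with bars of 1 SE and filled points past the threshold. In depleted cells 8 of 10 tRNAs are filled points between -2.24 and -5.64, and the 13 mRNAs are open points with wide bars.

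Apart from the tRNAs, decreases were more frequent among GC-rich transcripts and long non-coding RNAs, although 513 of the 882 were protein-coding genes. The median GC content was 55.3% for the 882 genes that fell, 44.4% for the 448 that rose and 47.9% for all tested genes. Below 40% GC 0.498% of genes fell and 2.92% rose, and above 65% GC 9.55% fell and 0.36% rose. The libraries differed in GC content in the same direction, as given above. With a GC offset for each library, an alternative chosen after seeing the data, 1282 genes fell and 732 rose; 3.2% of genes below 40% GC and 11.5% of those above 65% then fell, and 3.91% and 5.95% rose. With the GC slope covariate the shares higher and lower were close at both ends: above 65% GC 18.2% fell and 17.8% rose, and below 40% GC 8.93% fell and 8.22% rose. Without the 3 outlying libraries they differed again, with 23.8% lower and 1.26% higher above 65% GC and 2.17% lower and 14.5% higher below 40%. By kind of gene, 238 of 2568 long non-coding RNAs fell (9.27%) and 49 rose, against 3.84% of 13361 protein-coding genes that fell and 363 that rose.

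**Figure D4:**
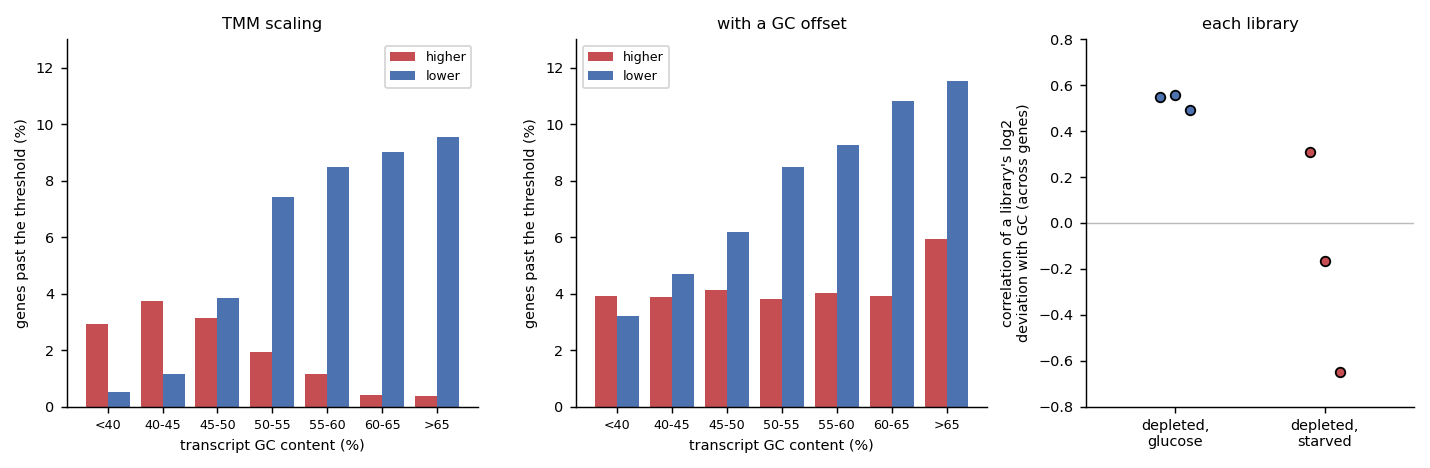
Percentage of tested genes past the threshold by transcript GC content, with TMM scaling (left) and with a GC offset (middle), and the correlation of each depleted library's log2 deviation with GC content (right). With TMM scaling the share of genes that fell goes from 0.498% below 40% GC to 9.55% above 65%; the 3 fed libraries sit at 0.491 to 0.557 and the starved ones at 0.310 to -0.650.

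Named genes with large decreases outside the mitochondrial genome were RHBDL1, a rhomboid protease, from 11.8, 12 and 14.2 to 3.53, 1.83 and 1.55 CPM (log2 fold change -2.44, SE 0.38, adjusted p = 0.0033), GNB3, a G protein beta subunit, from 8.65, 8.43 and 8.18 to 2.09, 1.62 and 1.23 CPM (-2.34), and NEIL1, a DNA glycosylase of base excision repair, from 18.4, 19.5 and 19.6 to 4.89, 4.29 and 3.24 CPM (-2.21). The vasopressin receptor gene AVPR2 fell by 2.09 on the log2 scale and the sphingosine-1-phosphate transporter gene SPNS2 by 1.76, the latter without its call when starved replicate 2 or 3 was left out (adjusted p = 0.0513 and 0.054). All 5 transcripts are GC-rich, at 59.4% to 66.7%, and all 5 passed with the GC offset (log2 fold changes from -1.45 to -2.13). The antisense RNA HOXB-AS3 fell from 7.25, 6.67 and 7.09 to 2.13, 1.83 and 1.32 CPM (-1.98, SE 0.29, adjusted p = 0.0022); the counting did not use strand, and fragments that overlapped another annotated gene were not counted.

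Histone lysine methyltransferases, put together after values were seen, fell in 5 of 19 cases and rose in 0 (median log2 fold change -0.30). KMT2D, which places H3K4 methylation at enhancers, went from 335, 412 and 351 to 126, 130 and 140 CPM (log2 fold change -1.47, SE 0.10, adjusted p = 1.4e-05). SETD1B, a subunit of a promoter H3K4 methylating complex, went from 83.4, 96.2 and 81.2 to 25.0, 32.3 and 28.5 CPM (log2 fold change -1.60, SE 0.12, adjusted p = 2.5e-05). In both genes every starved library lay far below every fed one; groups without overlap made up 39.7% of all tested genes. KMT2D and SETD1B also passed with the GC offset (-1.21 and -1.31), whereas KMT2B (-0.67) and the H3K79 methyltransferase DOT1L (-0.56) did not (adjusted p = 0.051 and 0.30). KMT2B lost its call without starved replicate 3 (adjusted p = 0.0652), and NSD1 (-0.43) without fed replicate 2 or starved replicate 3 (0.0591 and 0.0532). Of 33 HOX genes, also chosen after values were seen, 8 fell and 0 rose, among them HOXB5 (-1.49), HOXB6 (-1.17), HOXB3 (-0.61) and HOXA10 (-0.63); HOXA10 did not pass with the GC offset (adjusted p = 0.053).

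The response was then set against that of starved control cells, with which it shares no library. In control cells 6400 genes, 34.5% of those tested, passed the threshold. Of the 448 genes that rose in depleted cells, 288 also rose in control cells, 47 fell and 113 were not called. Of the 882 that fell, 386 also fell in control cells, 84 rose and 412 were not called. The 674 genes called in both with the same sign were 50.7% of the calls in depleted cells and 10.5% of those in control cells. The interaction, which tests whether the responses differ, passed for 3196 genes (17.3% of those tested; 8.3% higher and 8.95% lower in depleted than in control cells), 499 of them among the 1330.

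Among the 288 genes that rose in both, the interaction passed for 113, of which 111 rose less in depleted cells and 2 rose more. HMOX1 rose by 2.34 in depleted and 7.90 in control cells (interaction -5.56, adjusted p = 3.8e-06), and HSPA6 by 3.95 and 8.90 (interaction -4.95, adjusted p = 6.2e-05). HSPA1A (interaction -2.71), ID2 (-2.56), DUSP1 (-2.75), ANKRD1 (-3.35), PPP1R15A (-1.92), FOSB (-1.48), SLC2A3 (-1.42) and JUN (-0.75) also rose less in depleted cells. For FOS (4.41 against 4.89; interaction -0.48, SE 0.17, adjusted p = 0.072), EGR1 (4.0 against 3.07; 0.93, SE 0.55, adjusted p = 0.29) and IL6 (2.16 against 2.38; -0.23, SE 0.25, adjusted p = 0.60) the difference did not pass, which does not show that the responses are alike. In the ER chaperone list the interaction was negative for 23 of 25 genes and in the G2/M list positive for 21 of 23: HSPA5 stood at an interaction of -3.58 (adjusted p = 3.2e-07) and DDIT3 at -3.17, ASNS at -1.74 and ATF4 at -0.76 (adjusted p = 0.024), the last lost without any 1 of the fed depleted libraries or starved depleted replicate 3 (adjusted p = 0.0512 to 0.0751).

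Other genes rose in depleted cells more than in control cells. CCL2, a monocyte chemokine, went from 4.96, 5.30 and 3.81 to 8.80, 7.83 and 8.62 CPM in depleted cells, while in control cells it fell from 21.2, 20.7 and 22 to 2.08, 2.74 and 1.98 CPM (interaction 4.08, adjusted p = 1.3e-06). The 2 conditions thus had opposite directions from different starting levels. Opposite calls fix the sign of the interaction in advance. CCL2 and, below, MAP2K6 and ADGRF1 were named for having the smallest interaction p among genes with opposite calls. CXCL1 (interaction 0.79), ICAM1 (0.73), KDM3A (0.60) and CYP1A1 (0.99) also rose more in depleted cells on the log2 scale. Mean CXCL1 went from 25.2 to 57.7 CPM in depleted and from 90.5 to 120 CPM in control cells. KDM3A went from 46.6 to 79.5 CPM in depleted and from 70.8 to 79.9 CPM in control cells. For ICAM1 the means were 47.4 and 70.9 CPM in depleted and 49.5 and 44.6 CPM in control cells. Without glucose CYP1A1 reached 13.4, 13.1 and 12.6 CPM in depleted cells, beside 12.7, 9.39 and 12.8 CPM in control cells with glucose. The interaction of TIPARP (0.50, adjusted p = 0.047) was lost without any 1 of 10 of the 12 libraries (adjusted p = 0.0574 to 0.102). MAP2K6, a p38 kinase, and the adhesion GPCR ADGRF1 rose by 0.54 and 0.39 in depleted cells and fell in control cells (interactions 2.54 and 1.63); the rises were lost without any 1 of 4 and of 2 libraries (adjusted p = 0.0759 to 0.13 and 0.052 to 0.0559) and with a GC offset (0.32 and 0.20).

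Among the 412 genes that fell in depleted cells and were not called in control cells, the interaction passed for 155. All 155 were negative, a sign that the choice of these genes largely fixed in advance. SETD1B, BCL9L, CEACAM19, MT-TC and MT-TN were named for having the smallest interaction p among them. SETD1B stood at 70.7, 76.2 and 78.1 CPM in fed and at 90.1, 83.2 and 74.7 CPM in starved control cells, which overlap (interaction -1.75, adjusted p = 4.3e-05). BCL9L, a co-activator of beta-catenin, fell from 231, 256 and 236 to 117, 116 and 122 CPM in depleted cells and stood at 0.03 in control cells (interaction -1.06). MT-TC (interaction -3.28), MT-TN (-3.51), CCND1 (-0.50), KMT2B (-0.73) and CEACAM19 (-1.18), an immunoglobulin-family surface protein, belonged here as well. KMT2D (interaction -1.15), TXNIP (-0.91) and MT-TH (-2.20) fell in both and more in depleted cells. A further 84 genes fell in depleted cells and rose in control cells, which fixed the sign of their interaction in advance. ZNF469, TGIF1, ST3GAL1 and NALF2 were named for having the smallest interaction p among genes with opposite calls. ZNF469, a zinc finger gene, went from 3.0, 2.78 and 2.28 to 0.892, 0.875 and 0.684 CPM in depleted cells and from 2.06, 1.82 and 2.85 to 26, 23.1 and 33.6 CPM in control cells (interaction -5.32, adjusted p = 2.6e-06). BTG2 (interaction -1.22), DOT1L (-0.83), MT-RNR1 (-1.86), TGIF1 (-1.61), ADM2 (-3.85), SLC7A1 (-1.55), SLC6A9 (-2.15), the sialyltransferase gene ST3GAL1 (-1.87) and NALF2 (-3.09), an auxiliary factor of the NALCN channel, were among them; NALF2's fall of 0.55 in depleted cells was lost without any 1 of 4 libraries (adjusted p = 0.0834 to 0.108).

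**Figure D5:**
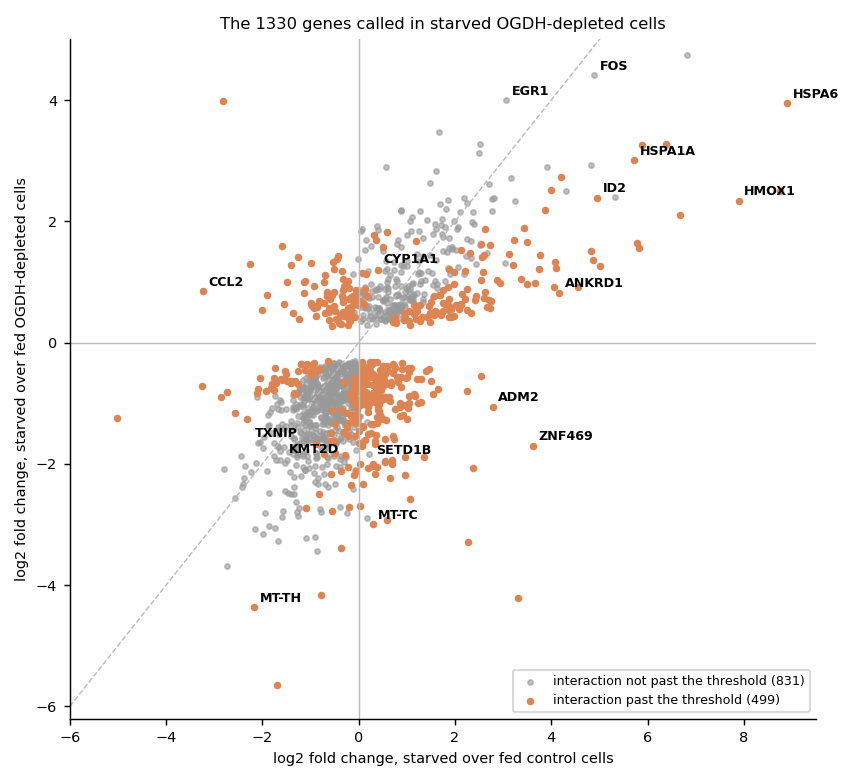
Log2 fold change with starvation in OGDH-depleted cells (vertical) against control cells (horizontal) for the 1330 genes called in depleted cells, with orange for the 499 whose interaction passed the threshold and grey for the other 831; the dashed line marks equal change. HMOX1 and HSPA6 lie far right of the line, CCL2 in the upper left and ZNF469 in the lower right.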

How the data were processed

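RNA from 12 libraries of A375 cells was sequenced. The authors deposited whole-number fragment counts per gene, made with featureCounts 2.0.1 per the file headers; the submitters' processing notes name Subread and hg38, and the aligner is not given in the sources used here. Counting did not use strand, and fragments that overlapped several genes or mapped to several places were not counted. Totals ran from 21556273 to 25546615 counts per library, and 80 gene names lie on more than 1 chromosome. Separate cultures are not stated in the labels, and the p-values reflect library-to-library spread, which may be technical.

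Genes were kept by filterByExpr (minimum count 10, minimum total 15), which left 18526 names with 99.9% of counts and 42683 not tested. edgeR 4.0.16 (R 4.3.3, limma 3.58.1) fitted a mean for each of 4 groups of 3 libraries with TMM scaling. The quasi-likelihood test was adjusted over all tested genes by Benjamini-Hochberg at 0.05. SE is an approximate standard error, the size of the log2 fold change divided by the square root of the F statistic of that test. The fit was tested on simulated data. DESeq2 1.42.0, other scalings and filters, a replicate block, a test against a 1.5-fold change, leaving out each library, a GC offset and a GC slope covariate were alternatives. GC content came from GENCODE 29 transcripts (96.9% of tested genes).

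The named genes were OGDH, the 15 largest increases and decreases with at least 5 CPM and no overlap, up to 6 called members of each gene list, a fixed set, the mitochondrial tRNAs and genes led by their interaction p; others are said to have been named after their values were seen. TIPARP, CYP1A1, AHR, the HOX genes, KMT2D, KMT2B, DOT1L and NSD1 are among those others. Members and lists were chosen with earlier results of these data known. Promoter windows are from RefSeq, 250 bases before to 50 after each start.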

Additional observations from a re-analysis of the deposited data

Results flagged for a closer look

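The starvation response of OGDH-depleted cells differed from that of control cells by the interaction test for 3196 genes. A selection of the genes described in the report for which it did is given with the interaction (response in depleted minus response in control cells, log2). Other genes in the report passed as well, and some were named for a small interaction p. No explanation was tested.

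Among genes that rose in depleted cells the interaction was -5.56 for HMOX1, -4.95 for HSPA6, -3.35 for ANKRD1, -2.75 for DUSP1, -2.71 for HSPA1A, -2.56 for ID2, -1.92 for PPP1R15A, -1.48 for FOSB, -1.42 for SLC2A3 and -0.75 for JUN. It was also negative for DUSP5 (-2.32), KLF4 (-2.07), F3 (-2.05), BAG3 (-1.78), GADD45B (-1.67), DNAJB1 (-1.67) and CITED2 (-1.52). The same held for BHLHE40 (-1.52), HSPH1 (-1.49), ZFP36 (-1.48), ATF3 (-1.11), CCN2 (-0.85) and INSIG1 (-0.65). It was positive for CCL2 (4.08), MAP2K6 (2.54), ADGRF1 (1.63), CYP1A1 (0.99), CXCL1 (0.79), ICAM1 (0.73), KDM3A (0.60) and TIPARP (0.50).

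Among genes that fell in depleted cells it was -5.32 for ZNF469, -3.85 for ADM2, -3.51 for MT-TN, -3.28 for MT-TC, -3.09 for NALF2, -2.20 for MT-TH, -2.15 for SLC6A9, -1.87 for ST3GAL1, -1.86 for MT-RNR1, -1.75 for SETD1B, -1.61 for TGIF1 and -1.55 for SLC7A1. Smaller values were -1.22 for BTG2, -1.18 for CEACAM19, -1.15 for KMT2D, -1.06 for BCL9L, -0.91 for TXNIP, -0.85 for ARRDC4, -0.83 for DOT1L, -0.73 for KMT2B and -0.50 for CCND1. E2F2 (2.53) and SMAD6 (1.96) fell less in depleted than in control cells.

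Among genes not called in depleted cells it was -3.58 for HSPA5, -3.17 for DDIT3, -1.74 for ASNS and -0.76 for ATF4.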

How the results depend on the processing

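The 1330 calls became 2031 with DESeq2, 220 against a 1.5-fold change, 2014 with the GC offset, 4681 with the GC slope covariate, 3319 without the 3 outlying libraries and 602 to 1153 when 1 compared library was left out; RLE and upper-quartile scaling, no filter, a minimum count of 30 and fitting the compared groups alone gave 1210 to 1848. The 3196 interaction calls became 1080, 5102, 8565 and 8057 under the 1.5-fold test, GC offset, GC slope and without the 3 libraries (2287 to 3316 leaving out 1 library), and the 6400 control calls 2287 under the 1.5-fold test, 10914 with the GC slope and 11298 without the 3 libraries (4945 to 7426). Of the named genes chosen by the rule 126 were called, 61 against a 1.5-fold change and 94 to 115 leaving out 1 library. List members called were 111, and 44, 351 and 216 under the 1.5-fold test, GC slope and without the 3 libraries (78 to 101 leaving out 1). The sign turned with the GC slope for SLC2A1 (0.48, adjusted p = 2.4e-05) and MT-TP (-1.22, adjusted p = 0.000307), and without the 3 libraries for the interactions of NR4A2 (-0.58, adjusted p = 0.0148) and NFKBIZ (-0.36, adjusted p = 0.0139); the cause was not tested. With the replicate number as a block 1011 genes were called, 982 of them shared with the 1330. Deviations from the group mean in same-numbered fed and starved depleted libraries correlated at 0.0782, 0.317 and -0.315. The labels do not say whether the numbers pair the samples. These correlations cannot decide it, because the deviations also hold the GC differences between libraries. With 3 libraries a group and a median SE of 0.21, small changes are beyond what these counts can resolve.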

Other observations

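Of 18 p53 targets 1 fell (BTG2). Of 10 replication-dependent histone genes 2 rose; H2AC6 lost its call without any 1 of the 6 compared libraries (adjusted p = 0.074 to 0.154) and H2BC21 without any 1 of 4 (0.0639 to 0.0952). Of 26 lysosome and autophagy genes 1 rose, UVRAG, a call lost without any 1 of the 6 (0.061 to 0.146). Of 13 Kruppel-like factors 3 rose, and 1 or 2 when any 1 library was left out. Of 30 cytosolic ribosomal proteins 0 passed by edgeR; before adjustment 0 had p under 0.05, and DESeq2 called 0; with the GC slope covariate 25 were higher and 0 lower. EDN1, the vasoconstrictor endothelin-1, rose from 5.56, 4.59 and 4.89 to 21.1, 25.3 and 32.6 CPM (log2 fold change 2.39, SE 0.27, adjusted p = 0.000456). It was named as 1 of the 15 largest increases, a choice that required no overlap between the groups.

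Other lists were put together after values were seen. Of 9 plexins 4 fell, but 0 did without fed replicate 2 or 3 or starved replicate 2 or 3, and 1 without fed replicate 1. Of 6 notch receptors and CELSR cadherins 4 fell, but 1 without any 1 of the fed libraries or starved replicate 2, and 0 without starved replicate 3. Of 8 SOCS proteins 2 rose, but 0 without fed replicate 1 or 3 or starved replicate 2, and 1 without fed replicate 2 or starved replicate 3. Of 437 ZNF-numbered zinc finger genes 17 rose and 13 fell, 6.86% against 7.18% of all genes; leaving out 1 library gave 5 to 15 higher and 7 to 11 lower.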
